A study of Danio rerio with 8 samples.

Results

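The heat shock and DnaJ chaperone genes are those whose symbol begins with hsp or dnaj, together with unc45b, smyd1a and smyd1b, which encode partners of Hsp90 in muscle. They were taken by name from a table of RefSeq transcripts made from zebrafish trunk RNA, with the row of highest mean kept for each symbol. Of 68 matching rows, 1 held only a fill value (dnajc17) and 2 were further copies of hsp70 and smyd1b. This left 65 genes of 13765 symbols, 34 with a dnaj name, 28 with an hsp name and the other 3. A mean of at least 1 RPKM (reads per kilobase of transcript, scaled to the mapped reads of a library) over all libraries was reached by 61 of them. The 4 genes under it were hsp70l, dnajb12b, dnajb13 and hspb15, none of which exceeded 1.65 RPKM in a library.

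Chaperones bind unfolded or unstable proteins and keep them from aggregating. Hsp70 proteins do so in cycles of ATP hydrolysis that J-domain (DnaJ) proteins start and exchange factors end, Hsp90 acts later on a narrower set of clients such as kinases, steroid receptors and myosin, and small heat shock proteins (HspB) hold unfolded proteins without ATP. Some genes of each family are switched on by heat shock factors when proteins unfold, others are read constantly in all cells, and in striated muscle Unc45b, Hsp90 and Smyd1 assemble myosin into the sarcomere.

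The study sequenced polyadenylated RNA from trunk pieces of embryos aged 38 to 40 hours after fertilisation, raised at 28 °C with no special treatment, with heads and yolks removed. MUT embryos were foxc1a p162/p162 homozygotes and SIB embryos are labelled as p162/+ siblings, although the design text calls the controls wild type. The front piece (AS, anterior) spanned segments 1 to 6 of the somites, the level at which motor nerves leave for the pectoral fin, and the rear piece (PS, posterior) spanned segments 7 to about 12. Each of the 4 groups (MUT_AS, SIB_AS, MUT_PS and SIB_PS) had 2 libraries, called replicates 1 and 3 after the endings of their titles, and values below give replicate 1 before replicate 3. No label says whether the replicates came from separate clutches or how many embryos a piece pooled, so p-values measure the spread between these libraries, which may be technical.

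The mutated gene did not separate the genotypes: foxc1a, a forkhead transcription factor, was at 19.3 and 16.3 RPKM in MUT_AS against 18.1 and 16.3 RPKM in SIB_AS, and at 9.03 and 7.74 RPKM in MUT_PS against 7.75 and 7.32 RPKM in SIB_PS. Its RPKM values do not check the genotype labels. Muscle, as labelled, was present: the fast muscle list, 25 of whose transcripts were tested, held between 4.71% and 21.2% of all RPKM in a library. Heart markers held at most 0.00981%. The table has no counts, so depth is known only through its lowest values. MUT_AS replicate 3 stood apart, with 17.5% of transcripts at 0 against 4.59% to 8.01% in the other 7 libraries, and with a smallest value above 0 of 0.0756 RPKM against 0.0022 to 0.0209. Its group had a standard deviation between replicates of 0.363 on the log2 scale over all tested transcripts, against 0.181 to 0.195 in the other 3 groups. Calls over both regions or both genotypes that change without it are named below.

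Most of the chaperone RNA came from 2 constitutive cytosolic genes. hspa8 encodes Hsc70, the housekeeping Hsp70, and averaged 1762 RPKM over the 8 libraries, rank 44 of all 14581 rows. hsp90ab1 encodes the constitutive Hsp90 beta and averaged 1157 RPKM, rank 109. Next came hspe1, the mitochondrial Hsp10, at 168 RPKM, and then hsp90aa1.1 at 125 RPKM and smyd1a at 124.5 RPKM, both of muscle. The 65 genes together held 1.18% and 1.095% of all RPKM in MUT_AS, 1.03% and 1.02% in SIB_AS, 0.781% and 0.702% in MUT_PS, and 0.697% and 0.706% in SIB_PS. hspa8 and hsp90ab1 made up between 67.8% and 71.1% of that chaperone RPKM in the AS libraries and between 49.6% and 60.6% in the PS libraries, so the ranges did not overlap. The stress-induced class ranged widely, with hspb1 at 96.4 RPKM (rank 623), hsp90aa1.2 at 16.1 and dnajb1b at 12.2. hsp70, the classical heat-inducible Hsp70, averaged 4.01 RPKM (rank 7814), and hsp70l averaged 0.549 RPKM and did not exceed 1.06 RPKM in a library. Reads of near-identical copies may have been split between hsp90aa1.1 and hsp90aa1.2, which are neighbours in the reference annotation, and between the hsp70 copies, so these values are uncertain.

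**Figure D1:**
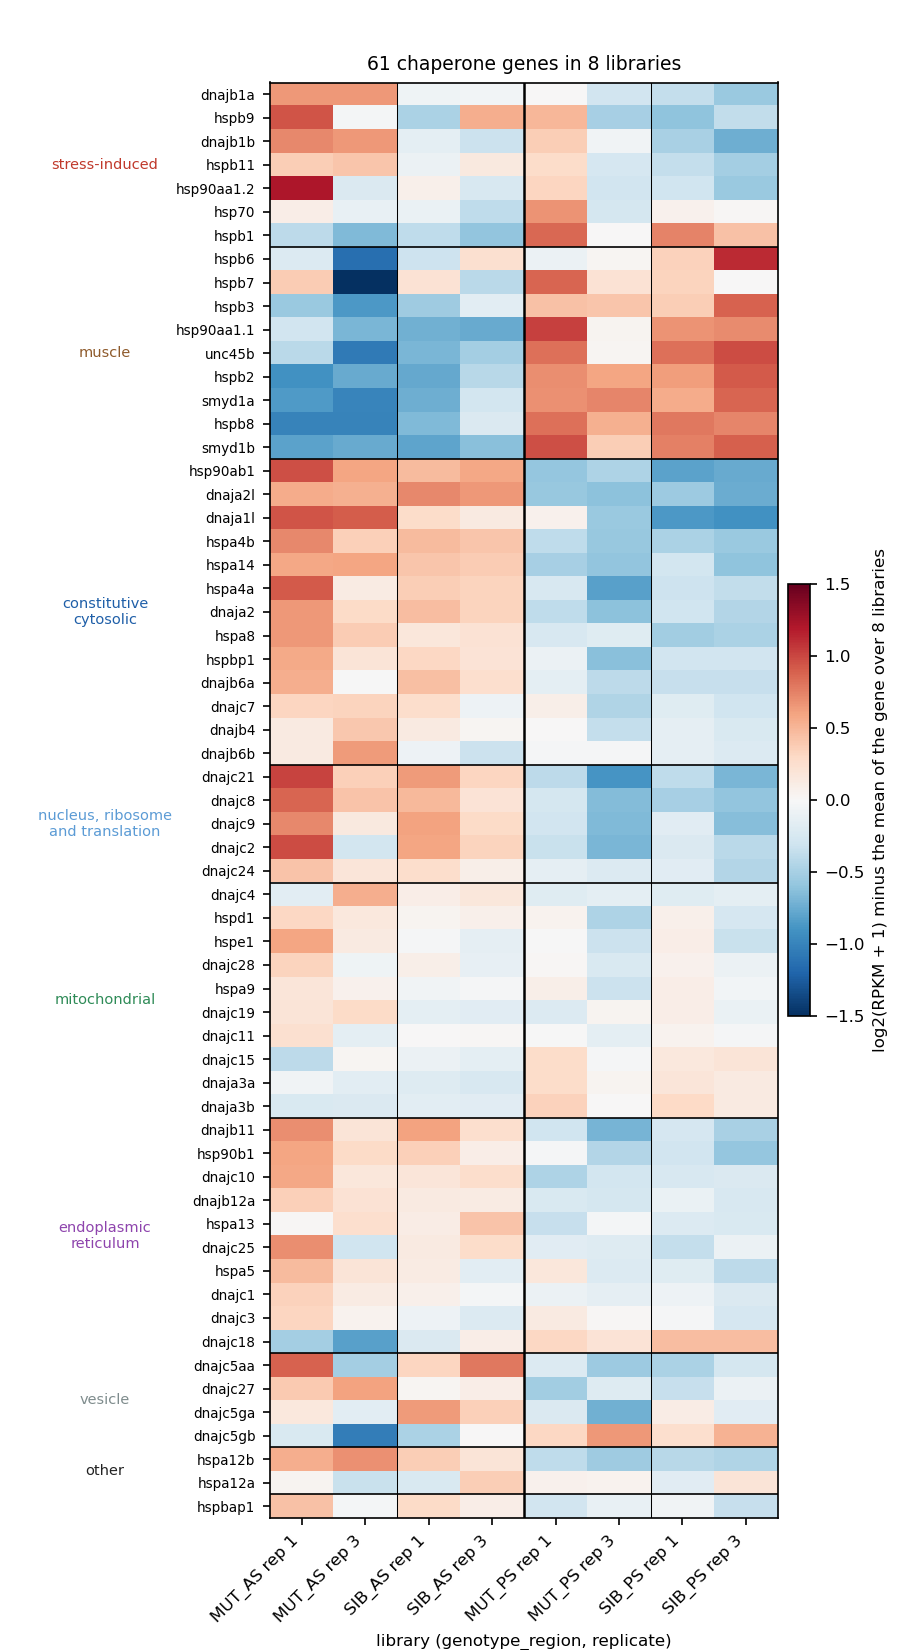
Levels of the 61 chaperone genes with a mean of at least 1 RPKM (rows, grouped by class) in the 8 libraries (columns, MUT left of SIB within AS and within PS). Colour gives log2(RPKM + 1) minus the mean of the gene over the 8 libraries, on a scale that ends at 1.5 in both directions. Most of the muscle class is red in PS and blue in AS, most of the constitutive cytosolic class is red in AS and blue in PS, and within AS the MUT_AS columns are the darkest red for dnajb1a, dnajb1b and dnaja1l.

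Region was the main divide among these genes. Over MUT and SIB together, 30 of the 61 tested genes passed as higher in AS at an adjusted p under 0.05, 13 passed as lower and 18 did not pass (limma, Benjamini-Hochberg over 10889 transcripts). Of all tested transcripts 52.6% were higher and 14.1% were lower, so the share called higher was near that of all transcripts. The table as a whole was shifted, with a median log2 difference of 0.40 between AS and PS. Differences here are on the log2(RPKM + 1) scale, which understates the change of low genes. Where regions are said below not to overlap, this describes single genes, as the share of all transcripts without such overlap is not given here. When every library was instead scaled to a common median, 12 of the genes were higher and 21 were lower, beside 28% and 30.3% of all transcripts. Calls that held under both scalings were 12 higher and 13 lower, and no gene was called in opposite directions. Within SIB alone 15 were higher and 9 lower (41.6% and 9.62% of all transcripts), and within MUT alone 22 were higher and 10 lower (44% and 10.9%). All 15 and all 9 genes called in SIB were called in MUT in the same direction. Of the 61 genes 3 averaged under 1 RPKM in one region and were tested only through the other: hspa12b and hspbap1 (higher in AS) and hspb6 (lower). Their differences are descriptions, and they are among the 30 and the 13. Region counts with a library left out are given without the share of all transcripts, so they say nothing particular about chaperone genes. The SIB count was 37 without either MUT_AS library in turn, 14 without SIB_AS replicate 1 and 15 without SIB_PS replicate 3.

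The constitutive cytosolic chaperones stood higher in AS. Of 13 tested, 12 passed as higher, the exception being dnajb6b, and their median log2 difference was 0.87 beside 0.40 for all transcripts. After median scaling 7 of the 13 were called higher, none lower, and the median was 0.44. hsp90ab1 had 2029 and 1575 RPKM in MUT_AS and 1448 and 1552 in SIB_AS, against 694 and 752 in MUT_PS and 594 and 615 in SIB_PS. All 4 AS libraries lay above all 4 PS libraries (log2 difference 1.31, SE 0.12, adjusted p = 1.42e-05). hspa8 had 2668 and 2205 RPKM in MUT_AS and 1918 and 1968 in SIB_AS, against 1436 and 1497 in MUT_PS and 1183 and 1224 in SIB_PS, again without overlap between regions (log2 difference 0.71, SE 0.11, adjusted p = 0.000254). Class A J-domain proteins are the general partners of Hsc70, and 3 of the cytosol were measured. dnaja2l had 65.1 and 64.1 RPKM in MUT_AS and 73.3 and 69.8 in SIB_AS, against 29.4 and 28.4 in MUT_PS and 29.7 and 25.9 in SIB_PS. Its AS libraries agreed closely and all lay above the PS libraries (log2 difference 1.23, SE 0.10, adjusted p = 1.19e-05). dnaja2 had 96.3 and 74.8 RPKM in MUT_AS and 84.6 and 77.6 in SIB_AS, against 46.7 and 39.7 in MUT_PS and 49.7 and 44.7 in SIB_PS. dnaja1l had 19.99 and 19.5 RPKM in MUT_AS and 12.2 and 11.01 in SIB_AS, against 10.5 and 6.46 in MUT_PS and 5.04 and 4.81 in SIB_PS, and MUT_PS replicate 1 came close to SIB_AS. For dnaja2 the log2 difference between regions was 0.87 (SE 0.12), and for dnaja1l it was 1.13 (SE 0.14).

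Exchange factors and related proteins of the Hsp70 cycle were mostly higher in AS as deposited, and fewer of them after median scaling. hspa4b, an Hsp110-type exchange factor, had 85.97 and 66.9 RPKM in MUT_AS and 72.7 and 69.4 in SIB_AS, against 39.7 and 34.7 in MUT_PS and 37.1 and 35.1 in SIB_PS. Its paralog hspa4a had 44.7 and 25.3 RPKM in MUT_AS and 30.4 and 29.5 in SIB_AS, against 19.5 and 12.7 in MUT_PS and 18.6 and 17.7 in SIB_PS, and here MUT_AS replicate 1 was far above its replicate. hspa14, an Hsp70-like protein that sits on ribosomes, had 20.1 and 20.2 RPKM in MUT_AS and 17.8 and 17.4 in SIB_AS, against 8.97 and 8.35 in MUT_PS and 10.6 and 8.31 in SIB_PS. In all 3 genes the AS libraries lay above the PS libraries, with log2 differences of 0.99 (SE 0.12) for hspa4b, 0.87 (SE 0.19) for hspa4a and 0.98 (SE 0.11) for hspa14. hspbp1, another exchange factor, had 10.5 and 7.798 RPKM in MUT_AS and 8.55 and 7.87 in SIB_AS, against 6.25 and 3.998 in MUT_PS and 5.31 and 5.298 in SIB_PS. dnajb6a, a J protein that suppresses aggregation, had 36.8 and 24.8 RPKM in MUT_AS and 34.6 and 29.9 in SIB_AS, against 22.5 and 18.7 in MUT_PS and 19.3 and 19.4 in SIB_PS. Both of these also had AS above PS in every library. After median scaling hspa4b and hspa14 passed, while hspa4a (0.45, adjusted p = 0.0561), hspbp1 and dnajb6a did not. dnajc7, which binds both Hsp70 and Hsp90, had 9.17 and 9.29 RPKM in MUT_AS and 8.74 and 6.71 in SIB_AS, against 7.63 and 4.95 in MUT_PS and 6.16 and 5.604 in SIB_PS. dnajb4 had 1.59 and 2.11 RPKM in MUT_AS and 1.59 and 1.41 in SIB_AS, against 1.35 and 0.834 in MUT_PS and 1.14 and 1.01 in SIB_PS. These last 2 were nearest to the threshold, with log2 differences of 0.42 (adjusted p = 0.0252) and 0.36 (adjusted p = 0.0438). Their signs turned after median scaling (-0.0007 for dnajc7 and -0.0641 for dnajb4). For dnajc7 the regions overlapped over both genotypes pooled, though not within either. dnajb6b had 7.33 and 10.8 RPKM in MUT_AS and 6.19 and 5.09 in SIB_AS, against 6.497 and 6.49 in MUT_PS and 5.93 and 5.56 in SIB_PS, with a log2 difference of 0.19 (SE 0.14, adjusted p = 0.244).

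The 5 J proteins of the nucleus, ribosome and translation were all higher in AS, with a median log2 difference of 0.88 beside 0.40 for all transcripts. After median scaling 3 of the 5 were also higher, and the median was 0.45 beside -0.02. dnajc21, which acts in the maturation of the large ribosomal subunit, had 16.4 and 10.1 RPKM in MUT_AS and 12.5 and 9.801 in SIB_AS, against 5.59 and 3.66 in MUT_PS and 5.59 and 4.36 in SIB_PS. dnajc8, a protein of the spliceosome, had 72.2 and 52.6 RPKM in MUT_AS and 54.96 and 45.2 in SIB_AS, against 32.3 and 24.4 in MUT_PS and 27.2 and 25.6 in SIB_PS. dnajc9, a histone chaperone, had 55.2 and 36.6 RPKM in MUT_AS and 50.98 and 40.5 in SIB_AS, against 26.9 and 20.6 in MUT_PS and 29.4 and 20.9 in SIB_PS. These 3 were the ones called under both scalings, with log2 differences of 1.17 (SE 0.18), 1.0001 (SE 0.14) and 0.88 (SE 0.17), and in all 3 each AS library lay above each PS library. dnajc2, the ribosome-bound partner of Hspa14, had 20.7 and 8.07 RPKM in MUT_AS and 15.6 and 12.9 in SIB_AS, against 7.74 and 5.83 in MUT_PS and 8.44 and 7.33 in SIB_PS. dnajc24, which acts in diphthamide synthesis on elongation factor 2, had 2.34 and 1.81 RPKM in MUT_AS and 1.97 and 1.65 in SIB_AS, against 1.25 and 1.149 in MUT_PS and 1.2 and 0.837 in SIB_PS. For dnajc2, where MUT_AS replicate 3 fell among the PS libraries, the difference was 0.82 (SE 0.24), and for dnajc24 it was 0.48 (SE 0.13).

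**Figure D2:**
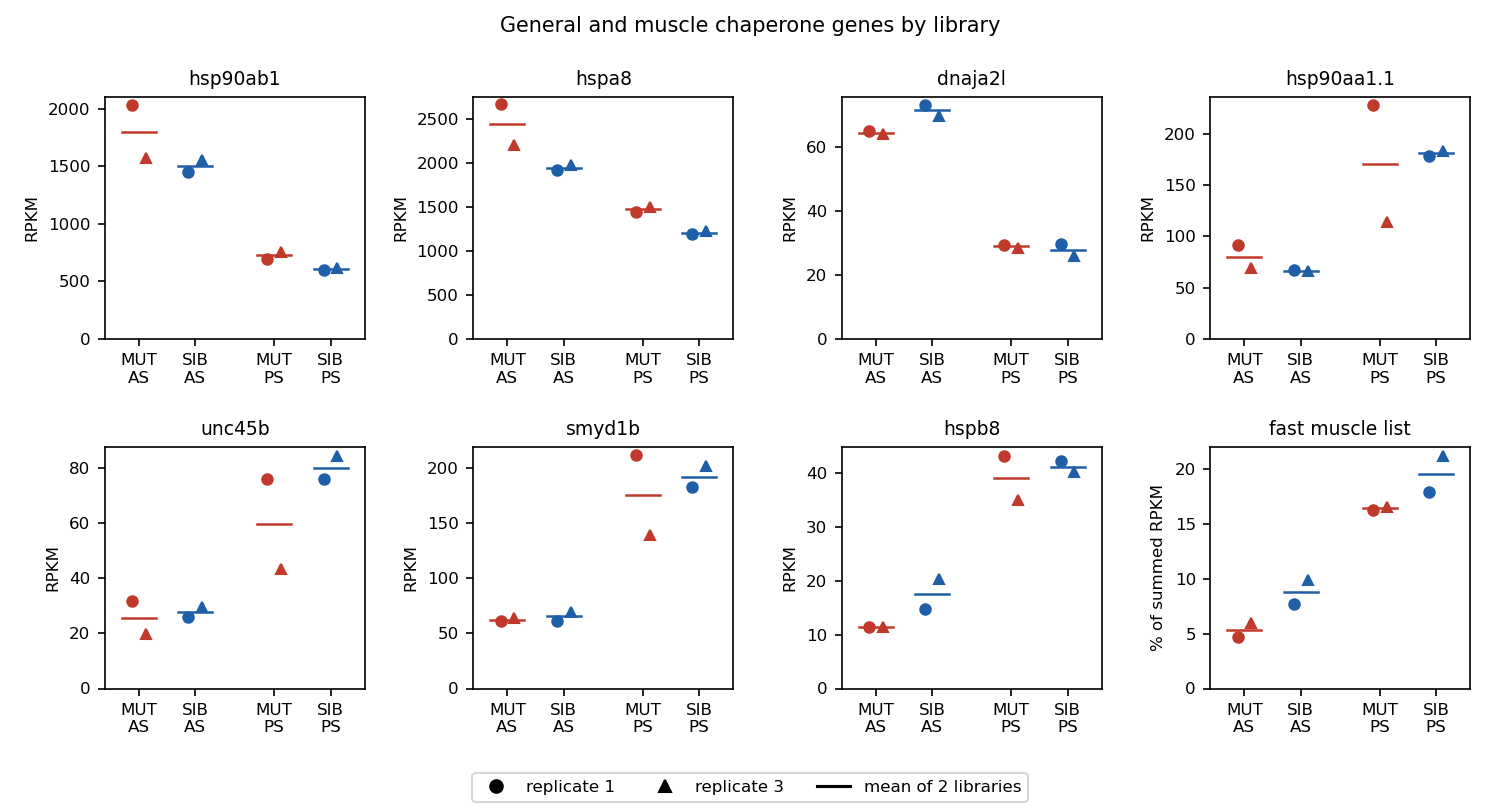
RPKM of 3 general chaperone genes (hsp90ab1, hspa8 and dnaja2l) and 4 muscle chaperone genes (hsp90aa1.1, unc45b, smyd1b and hspb8) in each library, and the share of summed RPKM held by the fast muscle list. Circles are replicate 1, triangles replicate 3, lines the mean of 2 libraries, red MUT and blue SIB, and vertical axes start at 0. hsp90ab1 lies between 1448 and 2029 RPKM in AS and between 594 and 752 in PS, while unc45b lies between 19.9 and 31.7 in AS and between 43.3 and 84.4 in PS.

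The muscle chaperones ran the other way. Of 9 tested, 8 passed as lower in AS, the exception being hspb7, and the median log2 difference was -1.33. After median scaling all 9 were called lower, with a median of -1.76. Myosin folding in zebrafish skeletal muscle uses Unc45b together with Hsp90aa1.1. unc45b had 31.7 and 19.9 RPKM in MUT_AS and 25.9 and 29.6 in SIB_AS, against 76.2 and 43.3 in MUT_PS and 76.1 and 84.4 in SIB_PS, and hsp90aa1.1 had 91.6 and 69 RPKM in MUT_AS and 67.3 and 65.9 in SIB_AS, against 228 and 115 in MUT_PS and 179 and 184 in SIB_PS. In both genes every AS library was below every PS library, with log2 differences of -1.33 (SE 0.20, adjusted p = 0.000202) for unc45b and -1.22 (SE 0.20, adjusted p = 0.00035) for hsp90aa1.1. The methyltransferase genes smyd1a and smyd1b, needed for sarcomere assembly, were at similar levels. smyd1a had 60.6 and 54.96 RPKM in MUT_AS and 65.7 and 90.3 in SIB_AS, against 177 and 184 in MUT_PS and 162 and 202 in SIB_PS. smyd1b had 61.1 and 63.5 RPKM in MUT_AS and 61.6 and 69.2 in SIB_AS, against 211 and 139 in MUT_PS and 182 and 201 in SIB_PS. Their log2 differences were -1.42 (SE 0.13) and -1.49 (SE 0.14), without overlap between regions. A further row of smyd1b, at a mean of 61.9 RPKM, ran between 22.9 and 36.2 RPKM in AS and between 82.1 and 111.8 in PS.

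Small heat shock proteins of muscle were lower in AS as well. hspb8, which works with Bag3 in clearing damaged proteins of muscle, had 11.4 and 11.4 RPKM in MUT_AS and 14.7 and 20.3 in SIB_AS, against 43.1 and 34.8 in MUT_PS and 42.1 and 40.1 in SIB_PS. hspb2 and hspb3 encode a pair that binds each other in mammalian muscle. hspb2 had 6.58 and 7.39 RPKM in MUT_AS and 7.36 and 9.64 in SIB_AS, against 21.96 and 20.4 in MUT_PS and 20.9 and 25.7 in SIB_PS. hspb3 had 3.22 and 2.42 RPKM in MUT_AS and 3.28 and 4.55 in SIB_AS, against 7.44 and 7.32 in MUT_PS and 7.04 and 10.5 in SIB_PS. The log2 differences were -1.44 (SE 0.13) for hspb8, -1.42 (SE 0.13) for hspb2 and -1.06 (SE 0.15) for hspb3, and none of the 3 overlapped between regions. hspb6, or Hsp20, had 0.892 and 0 RPKM in MUT_AS and 0.7598 and 1.58 in SIB_AS, against 1.05 and 1.23 in MUT_PS and 1.77 and 3.73 in SIB_PS. The 0 is a value of the library that stood apart. The regions overlap over both genotypes pooled, though not within either. hspb7, a small heat shock protein of heart and skeletal muscle, had 6.03 and 0.776 RPKM in MUT_AS and 5.27 and 3.08 in SIB_AS, against 8.94 and 5.28 in MUT_PS and 5.83 and 4.42 in SIB_PS. hspb6 averaged 0.809 RPKM in AS and 1.94 in PS and was tested through PS, so its difference of -0.70 (SE 0.24) is a description, and it was not called with no filter (adjusted p = 0.055). hspb7 had -0.71 (SE 0.42, adjusted p = 0.17). Without MUT_AS replicate 1 it had -1.21, a fit in which MUT_AS rests on the 0.776 RPKM of the library that stood apart.

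The 2 main Hsp90 genes stood in different proportion in the 2 regions. The ratio of hsp90ab1 to hsp90aa1.1 RPKM was 22.15 and 22.8 in MUT_AS and 21.5 and 23.5 in SIB_AS, against 3.04 and 6.56 in MUT_PS and 3.32 and 3.34 in SIB_PS. hsp90aa1.1 and unc45b kept closer to each other, with a ratio of 2.89 and 3.48 in MUT_AS, 2.60 and 2.23 in SIB_AS, 2.997 and 2.65 in MUT_PS and 2.35 and 2.18 in SIB_PS. Muscle RNA as a whole moved with these genes. The fast muscle list held 4.71% and 6.02% of RPKM in MUT_AS and 7.74% and 9.94% in SIB_AS, against 16.3% and 16.6% in MUT_PS and 17.9% and 21.2% in SIB_PS, and 23 of its 25 tested transcripts were lower in AS. Set against fast muscle RPKM, the 9 muscle chaperones came to 1.03% and 0.785% in MUT_AS and 0.674% and 0.600% in SIB_AS, against 0.905% and 0.627% in MUT_PS and 0.737% and 0.707% in SIB_PS. The regions overlapped in MUT but not in SIB, where AS was lower. Within AS the MUT libraries lay above the SIB libraries in this share, and within PS the genotypes overlapped. The summed RPKM of the 9 genes overlapped between genotypes in AS, at 273 and 229 in MUT_AS and 252 and 294 in SIB_AS. All 9 tested pan-neuronal transcripts were called higher in AS as deposited, and 7 of them after median scaling. Their part in the levels of the general chaperones was not tested. In tissue pieces fewer cells of a type and less RNA per cell cannot be told apart.

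Mitochondrial chaperones differed little between regions as deposited, and the sign of their median depended on the scaling. Under both scalings that median lay below the median of all transcripts. The median log2 difference of the 10 tested was 0.09 beside 0.40 for all transcripts, with 2 lower and none higher. After median scaling it was -0.34 beside -0.02, with 6 lower. The 2 genes called under both scalings were dnaja3a and dnaja3b, J partners of mitochondrial Hsp70. dnaja3a had 10.4 and 9.65 RPKM in MUT_AS and 9.42 and 9.097 in SIB_AS, against 13.4 and 11.2 in MUT_PS and 12.5 and 12.02 in SIB_PS. dnaja3b had 2.34 and 2.38 RPKM in MUT_AS and 2.49 and 2.46 in SIB_AS, against 3.96 and 2.92 in MUT_PS and 3.82 and 3.28 in SIB_PS. Their differences were -0.32 (SE 0.11) and -0.39 (SE 0.13). Hsp10 and Hsp60 of the matrix were not called in either direction with all libraries, under either scaling. hspe1 had 248 and 181 RPKM in MUT_AS and 163 and 149.9 in SIB_AS, against 163 and 131 in MUT_PS and 176 and 130.2 in SIB_PS. Its log2 difference was 0.29 (SE 0.15, adjusted p = 0.112). hspd1 (Hsp60), its neighbour in the reference annotation, had 0.29 (SE 0.14, adjusted p = 0.0861). The remaining 6 genes had differences between -0.30 (dnajc15) and 0.33 (dnajc4). Among them hspa9, the mitochondrial Hsp70, had 0.09 as deposited and was called lower after median scaling (-0.33, adjusted p = 0.0231 by limma).

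Chaperones of the endoplasmic reticulum were divided. Of 10 tested, 5 were higher in AS and 1 was lower, with a median of 0.40, equal to that of the whole table. Under median scaling 1 was higher and 2 were lower, around a median of -0.02. dnajb11, a J partner of BiP, had 61.1 and 42.9 RPKM in MUT_AS and 57.2 and 44.8 in SIB_AS, against 30.3 and 22.6 in MUT_PS and 31.1 and 26.4 in SIB_PS, and was the gene called higher under both scalings (log2 difference 0.87, SE 0.16, adjusted p = 0.000761). hsp90b1, the Hsp90 of the endoplasmic reticulum (Grp94), had 131 and 106 RPKM in MUT_AS and 112 and 92.96 in SIB_AS, against 85.5 and 63.9 in MUT_PS and 71.2 and 57.7 in SIB_PS. dnajc10, a J protein with disulfide reductase activity, had 16.2 and 11.9 RPKM in MUT_AS and 12 and 12.8 in SIB_AS, against 7.37 and 8.53 in MUT_PS and 8.73 and 8.91 in SIB_PS. For these 2 the log2 differences were 0.67 (SE 0.14) and 0.59 (SE 0.12). dnajb12a, a membrane-anchored J protein, had 18.9 and 17.1 RPKM in MUT_AS and 16.1 and 15.98 in SIB_AS, against 12.3 and 12.04 in MUT_PS and 13.6 and 12.2 in SIB_PS. hspa13 had 3.45 and 4.24 RPKM in MUT_AS and 3.75 and 4.92 in SIB_AS, against 2.46 and 3.29 in MUT_PS and 2.82 and 2.75 in SIB_PS. Neither dnajb12a (0.41 as deposited) nor hspa13 (0.41) kept its sign after median scaling. dnajc18, which also spans the membrane, had 8.14 and 6.44 RPKM in MUT_AS and 10.3 and 12.9 in SIB_AS, against 15.1 and 14.02 in MUT_PS and 17.03 and 17.03 in SIB_PS, and was the one gene of the class called lower under both scalings (log2 difference -0.72, SE 0.12, adjusted p = 0.000498). BiP itself, hspa5, had a difference of 0.31 (SE 0.14, adjusted p = 0.0643).

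Among genes of vesicles, dnajc5gb, a relative of cysteine string protein, had 3.43 and 1.53 RPKM in MUT_AS and 2.73 and 4.197 in SIB_AS, against 5.42 and 7.17 in MUT_PS and 5.16 and 6.48 in SIB_PS, and was lower in AS without overlap (log2 difference -0.87, SE 0.20, adjusted p = 0.00301). The other 3 of the class were higher as deposited, and not after median scaling. dnajc5aa, an ortholog of cysteine string protein, which guards synaptic vesicle fusion, had 10.4 and 3.31 RPKM in MUT_AS and 6.68 and 9.59 in SIB_AS, against 4.32 and 3.21 in MUT_PS and 3.43 and 4.11 in SIB_PS. dnajc5ga had 14.8 and 11.7 RPKM in MUT_AS and 21.1 and 17.2 in SIB_AS, against 11.2 and 7.64 in MUT_PS and 14.3 and 11.6 in SIB_PS. dnajc27, a small GTPase with a J domain, had 5.31 and 6.34 RPKM in MUT_AS and 3.93 and 4.18 in SIB_AS, against 2.36 and 3.23 in MUT_PS and 2.79 and 3.53 in SIB_PS. Their differences were 0.74 (SE 0.26), 0.50 (SE 0.15) and 0.57 (SE 0.13). hspa12b, an atypical Hsp70 known from mammalian endothelium, had 2.002 and 2.304 RPKM in MUT_AS and 1.65 and 1.36 in SIB_AS, against 0.582 and 0.421 in MUT_PS and 0.547 and 0.512 in SIB_PS. It averaged 1.83 RPKM in AS and 0.515 in PS, so it was tested through AS, and the log2 difference of 0.89 (SE 0.13) is a description. With no filter its adjusted p was 0.000349. Its paralog hspa12a had -0.07 (SE 0.17, adjusted p = 0.737) as deposited and was called lower after median scaling (-0.49, adjusted p = 0.0387 by limma). hspbap1, which is named for its binding to Hspb1, had 1.79 and 1.015 RPKM in MUT_AS and 1.51 and 1.198 in SIB_AS, against 0.683 and 0.904 in MUT_PS and 0.983 and 0.615 in SIB_PS, and was likewise tested through AS. Its difference of 0.40 (SE 0.16) was not called with no filter (adjusted p = 0.0507) and was -0.0251 after median scaling.

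**Figure D3:**
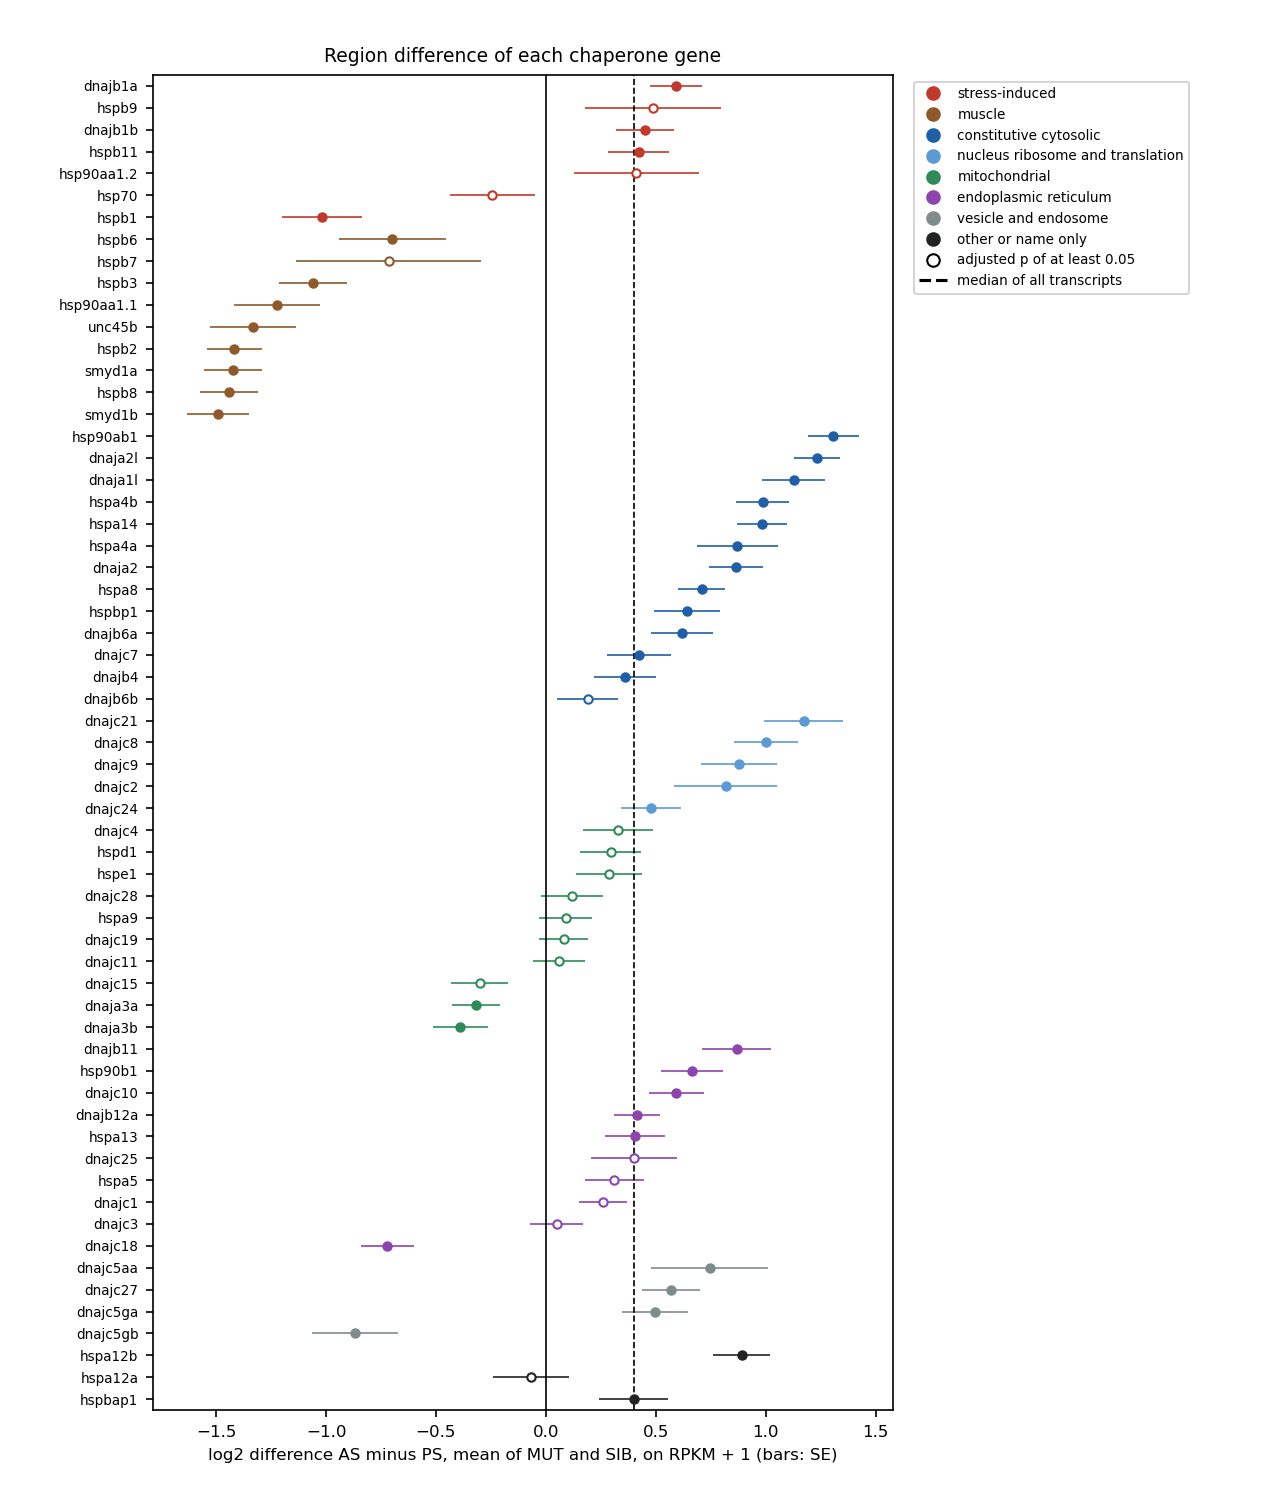
Log2 difference between AS and PS, averaged over MUT and SIB, for each of the 61 tested chaperone genes, by class. Points are estimates from 8 libraries on the RPKM + 1 scale, bars are standard errors, filled points have an adjusted p under 0.05, and the dashed line at 0.40 is the median of all tested transcripts. The muscle class and hspb1 lie left of 0 down to -1.49 (smyd1b), and the constitutive cytosolic class lies right of 0 up to 1.31 (hsp90ab1).

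Of 43 genes called between regions, 31 stayed called with each of the 8 libraries left out in turn, and 22 of them were also called under every other setting in which they were tested. These 22 included hsp90ab1, hspa8, dnaja1l, dnaja2, dnaja2l, hspa4b and hspa14 among the constitutive genes. From the muscle class they included unc45b, smyd1a, smyd1b, hsp90aa1.1, hspb2, hspb3 and hspb8. Both the 31 and the 22 contain hspa12b, which was tested only through AS, so its place there is a description. The 12 whose call was lost without some library were dnaja3a, dnaja3b, dnajb1b, dnajb4, dnajc24, dnajc5aa, dnajc5ga, dnajc7, hspa13, hspb11, hspb6 and hspbap1. Without MUT_AS replicate 1 the call of hspbap1 was lost (adjusted p = 0.0716), and without MUT_AS replicate 3 those of dnajb4 (0.0577) and hspb6 (0.0526). Without MUT_PS replicate 1, 5 calls were lost, with adjusted p-values from 0.0553 (hspb6) to 0.132 (hspbap1), and without MUT_PS replicate 3, 8 were, from 0.0557 (dnajb1b) to 0.173 (dnajb4). Without SIB_AS replicate 1, 8 were lost, from 0.0502 (dnajb1b) to 0.14 (hspbap1), and without SIB_AS replicate 3, 7 were, from 0.0577 (dnaja3b) to 0.108 (dnajc5aa). Without SIB_PS replicate 1, 7 were lost, from 0.0512 (dnajc7) to 0.0932 (dnajc5aa), and without SIB_PS replicate 3, 11 were, from 0.052 (dnajb1b) to 0.166 (hspbap1). All of these kept their sign. Calls were also gained, and the shares of all transcripts called in such fits are not given here. Without MUT_AS replicate 3, 6 genes passed that did not pass with it: hsp90aa1.2 (0.77, adjusted p = 0.000708), dnajc25 (0.65), hspe1 (0.40), hspa5 (0.38), dnajc1 (0.31) and dnajc15 (-0.41). Without MUT_AS replicate 1 they were hspb7 (-1.21), dnajc4 (0.51) and dnajb6b (0.32), without MUT_PS replicate 1 hspa5 (0.41) and hspd1 (0.42), and without MUT_PS replicate 3 hsp70 (-0.48, adjusted p = 0.0237). In SIB alone, 13 genes passed in addition without MUT_AS replicate 3: dnaja3a, dnajb1a, dnajc10, dnajc2, dnajc24, dnajc25, dnajc5aa, dnajc5ga, dnajc5gb, hspa13, hspb11, hspb6 and hspbp1, and the same 13 without MUT_AS replicate 1. In MUT alone 10 were gained and hsp90aa1.1 was lost without MUT_AS replicate 3.

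The stress-induced genes did not form one group by region. Of 7 tested, 3 were higher in AS, 1 was lower and 3 did not pass, beside 52.6% higher and 14.1% lower of all transcripts. With so few genes this split does not set the class apart. Its median log2 difference of 0.42 as deposited was -0.002 after median scaling, beside 0.40 and -0.02 for all transcripts. Under that scaling none of the 7 was called higher and 2 were called lower, hspb1 and hsp70. dnajb1a and dnajb1b encode the heat-inducible class B partner of Hsp70. dnajb1a had 10.6 and 10.6 RPKM in MUT_AS and 6.06 and 6.18 in SIB_AS, against 6.45 and 5.08 in MUT_PS and 4.78 and 4.05 in SIB_PS. dnajb1b had 19.5 and 18.6 RPKM in MUT_AS and 10.3 and 8.94 in SIB_AS, against 15.1 and 11.1 in MUT_PS and 7.897 and 6.48 in SIB_PS. hspb11, a small heat shock protein that the current annotation names hspb9l, had 11.2 and 11.6 RPKM in MUT_AS and 7.83 and 9.37 in SIB_AS, against 10.3 and 6.92 in MUT_PS and 6.33 and 5.61 in SIB_PS. Their region differences were 0.59 (SE 0.12), 0.45 (SE 0.13) and 0.42 (SE 0.14), none of them called after median scaling. In all 3 the regions overlapped over both genotypes pooled, while within each genotype both AS libraries lay above both PS libraries. hspb1, or Hsp27, which is heat-inducible and also abundant in muscle, had 67.5 and 55.9 RPKM in MUT_AS and 68.01 and 58.6 in SIB_AS, against 162 and 89.1 in MUT_PS and 149.6 and 121 in SIB_PS. All of its AS libraries lay below all PS libraries (log2 difference -1.02, SE 0.18, adjusted p = 0.000714), on the side of the muscle class.

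The remaining 3 did not pass by region as deposited. hsp90aa1.2, the more inducible of the tandem Hsp90 alpha genes, had 35.7 and 12.6 RPKM in MUT_AS and 15.7 and 12.5 in SIB_AS, against 18.8 and 12.01 in MUT_PS and 11.9 and 9.76 in SIB_PS, and its single high value was MUT_AS replicate 1. hspb9 had 15.7 and 7.501 RPKM in MUT_AS and 5.26 and 11.7 in SIB_AS, against 11.3 and 5.17 in MUT_PS and 4.75 and 5.72 in SIB_PS, with replicates far apart in MUT_AS, SIB_AS and MUT_PS. hsp70 had 4.26 and 3.52 RPKM in MUT_AS and 3.58 and 2.75 in SIB_AS, against 6.81 and 3.09 in MUT_PS and 4.1 and 3.94 in SIB_PS. The log2 differences were 0.41 (SE 0.28), 0.49 (SE 0.31) and -0.24 (SE 0.19), with adjusted p-values of 0.222, 0.191 and 0.281. After median scaling hsp70 was called lower in AS (-0.67, adjusted p = 0.0141 by limma), while hsp90aa1.2 and hspb9 were not called. hsp70l, under the limit of 1 RPKM, had 1.06 and 0.358 RPKM in MUT_AS and 0.537 and 0.115 in SIB_AS, against 0.602 and 0.478 in MUT_PS and 0.7201 and 0.518 in SIB_PS.

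By genotype, no chaperone gene passed the test, which compares homozygous mutants with siblings. With limma, 0 of the 61 genes were called between MUT and SIB in AS (0.0459% of all tested transcripts were), 0 in PS (0% of all), 0 over both regions (0.0827% of all) and 0 for the interaction of genotype and region (0% of all). At an unadjusted p under 0.05 the counts were 9, 3, 11 and 0 of 61, beside 1270, 291, 1214 and 298 of the 10889 tested transcripts. Over both regions the median log2 difference between MUT and SIB was 0.03 for the 61 genes, beside 0.06 for all transcripts. The stress-induced class had a median of 0.45, with 6 of 7 genes above 0, and the muscle class had -0.21, with 8 of 9 below 0. The constitutive cytosolic, endoplasmic reticulum and mitochondrial classes had 0.07, 0.03 and 0.03. The 0.45 is the value of hspb9, whose genotypes overlapped in AS. Shares of all transcripts above or below 0 are not given here, so the counts by sign say nothing particular about these classes. After median scaling the same medians were 0.38 and -0.28 for the stress-induced and muscle classes, and -0.005, -0.04 and -0.04 for the other 3.

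The gene nearest to a call was dnajb1b. It had 19.5 and 18.6 RPKM in MUT_AS against 10.3 and 8.94 RPKM in SIB_AS, and 15.1 and 11.1 RPKM in MUT_PS against 7.90 and 6.48 RPKM in SIB_PS. No MUT library overlapped a SIB library of the same region. Over both regions the log2 difference was 0.85 (SE 0.13, unadjusted p = 7.06e-05, adjusted p = 0.0591 by limma), and in AS and PS alone it was 0.92 (adjusted p = 0.216) and 0.77 (adjusted p = 1). The averaged difference lay between 0.74 and 0.95 over 15 other settings, with adjusted p-values between 0.00588 and 0.5. It passed in 5 of these 15 settings. They included a filter of 5 RPKM (0.0374) and means over the rows of a symbol (0.0478). They also included the fits without MUT_AS replicate 1 or replicate 3, with differences of 0.83 and 0.86. It did not pass with a weight per group (0.0509), a pseudocount of 0.1 (0.0683), median scaling (0.0869) or no filter (0.267). Nor did it pass with any single library of MUT_PS, SIB_AS or SIB_PS left out.

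Other genes leaned the same way without passing. dnaja1l, at 19.99 and 19.5 RPKM in MUT_AS against 12.2 and 11.01 RPKM in SIB_AS, and at 10.5 and 6.46 RPKM in MUT_PS against 5.04 and 4.81 RPKM in SIB_PS, had an averaged difference of 0.68 (SE 0.14, adjusted p = 0.205). dnajb1a, at 10.6 and 10.6 RPKM in MUT_AS against 6.06 and 6.18 RPKM in SIB_AS, had 0.51 (SE 0.12, adjusted p = 0.219). hspb11 had an averaged difference of 0.41 (SE 0.14, adjusted p = 0.34). In hsp90aa1.2 it was 0.51 (SE 0.28, adjusted p = 0.534), and in hspb9 it was 0.45 (SE 0.31, adjusted p = 0.632). For hsp70 it was 0.20 (SE 0.19), and hspb1 alone was below 0 at -0.10 (SE 0.18). Of the 61 genes, 8 had MUT above SIB without overlap in both regions, where 10.1% of all transcripts did. These were dnaja1l, dnajb1a, dnajb1b, dnajb6b, dnajc3, hsp90ab1, hspa8 and hspb11. Read against that background, the count of 8 says nothing particular about these genes.

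**Figure D4:**
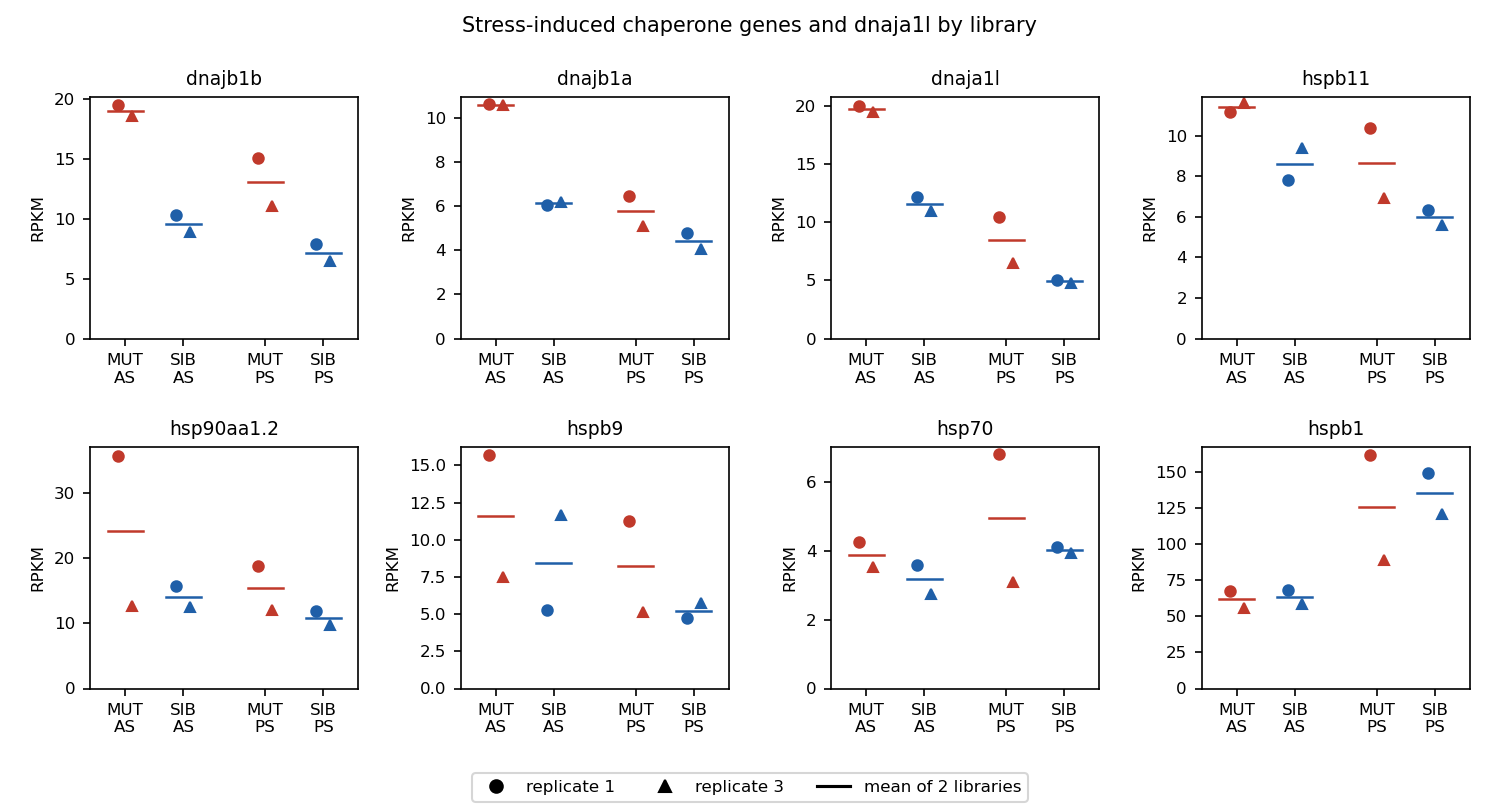
RPKM of the 7 tested stress-induced chaperone genes and of dnaja1l in each library. Circles are replicate 1, triangles replicate 3, lines the mean of 2 libraries, red MUT and blue SIB, and vertical axes start at 0. For dnajb1b both MUT libraries of a region lie above both SIB libraries, while hsp90aa1.2 has 1 high value, 35.7 RPKM in MUT_AS replicate 1.

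Lower in MUT, dnajc18 had 8.14 and 6.44 RPKM in MUT_AS against 10.3 and 12.9 RPKM in SIB_AS, and 15.1 and 14.0 RPKM in MUT_PS against 17.0 and 17.0 RPKM in SIB_PS. dnajc5ga had 14.8 and 11.7 RPKM in MUT_AS against 21.1 and 17.2 RPKM in SIB_AS, and 11.2 and 7.64 RPKM in MUT_PS against 14.3 and 11.6 RPKM in SIB_PS. They were the 2 of 61 genes with MUT below SIB without overlap in both regions, beside 2.25% of all transcripts, a share of the same order. Their averaged differences were -0.41 (SE 0.12, adjusted p = 0.294) and -0.47 (SE 0.15, adjusted p = 0.328). Next was hspb6, with -0.70 (SE 0.24, adjusted p = 0.351), whose lowest value is the 0 of MUT_AS replicate 3. It averaged 0.446 RPKM in MUT_AS and 1.14 in MUT_PS against 1.17 in SIB_AS and 2.75 in SIB_PS. The filter thus kept hspb6 mainly through SIB_PS, and its genotype difference is a description. In AS alone hspb8 had -0.56 (SE 0.19, adjusted p = 0.34), and in PS alone unc45b had -0.47 (SE 0.28, adjusted p = 1). Fast muscle transcripts had a median genotype difference of -0.42, with 2 of 25 called lower. Slow muscle transcripts went the other way, with a median of 0.23, 7 of 10 above 0 and none called. The part of either list in the muscle chaperone values was not tested.

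**Figure D5:**
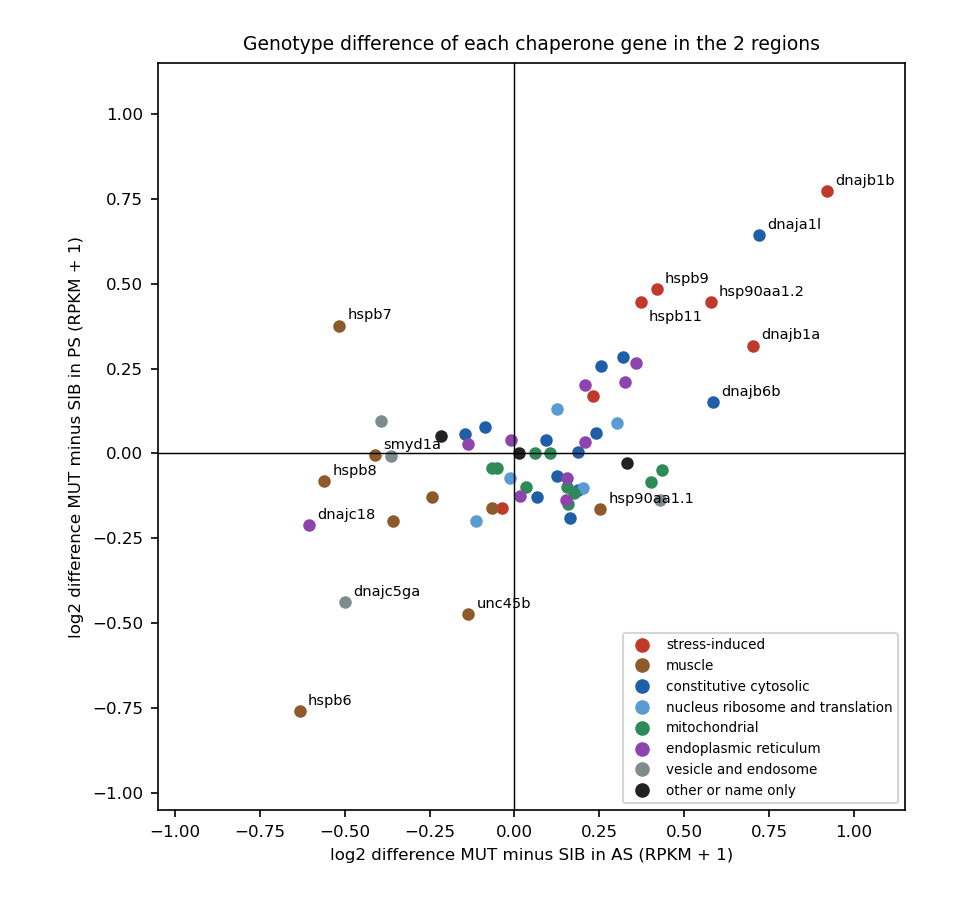
Log2 difference between MUT and SIB in AS (horizontal) and in PS (vertical) for the 61 tested chaperone genes, coloured by class, each from 2 libraries per group on the RPKM + 1 scale. None passed the test in either region. The stress-induced genes dnajb1b (0.92 and 0.77) and dnajb1a and the constitutive dnaja1l (0.72 and 0.64) lie at the upper right. At the lower left lies hspb6 (-0.63 and -0.76), which the filter kept mainly through SIB_PS.

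Single libraries weighed on these comparisons. Without MUT_AS replicate 1, 8 of the 61 genes were called in AS (dnajb1a, dnajb1b and dnajb6b higher, dnajc18, dnajc2, dnajc5aa, hspb6 and hspb7 lower), but so were 10.1% of all transcripts, and this fit rests on the one MUT_AS library that stood apart. Over both regions it called 9 of 61 (6.61% of all), and for the interaction it called hspb7 alone (1.83% of all). Without MUT_AS replicate 3, hsp90aa1.2 was called higher in AS (0.716% of all transcripts were called), and hsp90aa1.2 and dnajb1b over both regions (0.634% of all). A lone library of a group is assumed in such a fit to vary like the other groups. Leaving out any of the other 6 libraries gave 0 genes in each genotype comparison.

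In both MUT groups the 2 libraries differed from each other in many chaperone genes. Of the 61, 50 were higher in replicate 1 than in replicate 3 in MUT_PS, with a median log2 difference of 0.29 beside 0.04 for all transcripts. In MUT_AS 47 were higher, with a median of 0.29 beside 0.11. SIB_AS had 37 (0.045 beside 0.011) and SIB_PS had 42 (0.08 beside 0.106). The share of all transcripts higher in replicate 1 is not given here, so these counts alone say nothing particular about chaperone genes. In SIB_PS the median of the 61 genes was below that of all transcripts. The stress-induced class of MUT_PS had 7 of 7 higher (median 0.61), the constitutive cytosolic class 11 of 13 (0.23) and the muscle class 7 of 9 (0.30). Stress-induced genes were also higher in replicate 1 for 6 of 7 in MUT_AS (median 0.22), 4 of 7 in SIB_AS (0.18) and 6 of 7 in SIB_PS (0.20). The 0.22 of MUT_AS was below the 0.29 of the 61 genes there. The muscle class had 7 of 9 higher in MUT_AS (0.30), but 2 of 9 in SIB_AS (-0.35) and 2 of 9 in SIB_PS (-0.15). In MUT_PS hspb1 was at 162 against 89.1 RPKM and hsp70 at 6.81 against 3.09. The muscle genes hsp90aa1.1 and unc45b were at 228 against 115 and at 76.2 against 43.3 there. Erythroid markers held 1.41% of RPKM in replicate 1 and 0.460% in replicate 3 of MUT_PS, and 0.873% and 0.325% in MUT_AS. They held 0.362% and 0.137% in SIB_AS and 0.266% and 0.214% in SIB_PS. Their part in the differences between replicates was not tested. All 11 erythroid transcripts were above 0 by genotype, with a median of 1.36 and none called.

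Of the regulators and partners outside the name rule, 4 tested genes of the heat shock factor list were all higher in AS, and hsf1 and hsf2 also after median scaling. hsf1, the main factor of the heat shock response, was at 8.94 and 8.73 RPKM in MUT_AS and 7.82 and 8.73 in SIB_AS, against 4.43 and 4.04 in MUT_PS and 3.74 and 4.00 in SIB_PS. hsf2 was at 13.9 and 8.47 RPKM in MUT_AS and 13.6 and 13.1 in SIB_AS, against 4.21 and 4.16 in MUT_PS and 4.96 and 4.36 in SIB_PS. Neither overlapped between regions, with log2 differences of 0.92 (SE 0.11) and 1.27 (SE 0.15), and no gene of the list was called by genotype. Of 23 Hsp70 and Hsp90 co-chaperones 16 were higher in AS and 3 lower as deposited, and 5 were higher and 6 lower after median scaling. Higher under both were st13 (0.94), the Hsp70-interacting protein Hip, and unc45a (0.998), the general relative of unc45b, with chordc1, ppid and ptges3b. Lower under both were ahsa1 (-0.997), which drives the ATPase of Hsp90, bag3 (-0.80), the partner of Hspb8, and bag2 (-0.51). All 8 subunits of the TRiC chaperonin, which folds actin and tubulin, were higher as deposited, with a median of 0.45 beside 0.40 for all transcripts. None of them was called after median scaling. Of all tested transcripts 52.6% were higher and 14.1% lower in AS as deposited, and 28% and 30.3% after median scaling. How these lists stand against such shares was not tested.

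In the endoplasmic reticulum list, serpinh1b was called by genotype. It encodes Hsp47, the collagen chaperone, and is a serpin in family rather than a heat shock protein by name. It had 96.8 and 115 RPKM in MUT_AS against 45.9 and 39.4 RPKM in SIB_AS, and 184 and 123 RPKM in MUT_PS against 52.3 and 46.0 RPKM in SIB_PS. MUT libraries lay above SIB libraries in both regions, with an averaged log2 difference of 1.44 (SE 0.15, adjusted p = 0.00673). Without SIB_PS replicate 1 the adjusted p was 0.0689 and without SIB_PS replicate 3 it was 0.119, and with no filter on low values it was 0.0772. No other gene of the 21 tested was called by genotype, and 8 were higher in AS and none lower as deposited, among them hyou1 (0.79) and pdia4 (0.61), whereas 2 were higher and 8 lower after median scaling. Of 5 tested prefoldin subunits 2 were higher in AS as deposited, 2 were lower after median scaling, and none was called by genotype. None of 22 tested immediate early genes was called by genotype, with a median averaged difference of 0.12, and by region 9 were higher and 2 lower as deposited, against 6 higher and 9 lower after median scaling. The region counts of these lists stand beside 52.6% higher and 14.1% lower of all tested transcripts as deposited, and 28% and 30.3% after median scaling. The alpha crystallin genes cryaba and cryabb, small heat shock proteins of lens and muscle, had at most 0.0776 and 0.532 RPKM in a library.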

How the data were processed

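Values were deposited by the authors as log2(RPKM + 1) per RefSeq transcript and library, per the file headers. Reads were aligned with RUM to Zv9 (danRer7), each assigned to 1 transcript, per the labels' design text, and no read counts or depths were used. Deposited ratio columns served to drop 228 fill rows among 14809.

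Differences were fitted with limma 3.58.1 (R 4.3.3, statmod 1.5.0) on the deposited scale, with 1 mean for each of the 4 groups, a trend in the variance and robust estimation. All 8 libraries entered 7 contrasts, and p-values were adjusted (Benjamini-Hochberg) over the 10889 transcripts that averaged 1 RPKM or more. A permutation of 2 against 2 libraries cannot go below p = 0.333.

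Genes are named with values where they were called in a contrast, belonged to the stress-induced or muscle class, had the 5 highest means, or had the 3 smallest p-values in a direction by genotype. Members, classes and lists were chosen with earlier results of these data known, and dnajb1b was among them, so no direction here is independent support. Accessions of 64 members matched RefSeq (GRCz12tu), and 7 carry another current symbol there. Promoter motifs were not analysed here.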

Additional observations from a re-analysis of the deposited data

How the results depend on the processing

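Every alternative was chosen with the main design. With only the libraries of the contrast, 3 genes were called between MUT and SIB in PS (dnajb1b and dnaja1l higher, hspb6 lower) and 39 between AS and PS in SIB, which a weight per group made 38. The shares of all transcripts called in these settings are not given here, so the counts say nothing particular about chaperone genes. Over both regions 1 gene, dnajb1b, was called by genotype with a filter of 5 RPKM, with means over the rows of a symbol, and with a replicate block (adjusted p = 0.0288). The deposited ratio columns set SIB against MUT libraries of the same ending, but no label says what such libraries share. Same-numbered libraries deviated together with r between -0.0942 and 0.522. The block changed none of the 43 region calls of chaperone genes over both genotypes, nor the genotype call of serpinh1b. Its effect on the region calls of genes outside the name rule is not given here. Median scaling moved the region medians to -0.0018 (stress-induced), -1.76 (muscle), 0.44 (constitutive cytosolic), -0.34 (mitochondrial) and -0.0202 (endoplasmic reticulum). It turned the sign of dnajb12a (-0.0106), dnajb4 (-0.0641), dnajc7 (-0.0007), hspa13 (-0.0185), hspb11 (-0.0018) and hspbap1 (-0.0251), and 12 further region calls were lost with their sign kept. The median of all transcripts between AS and PS is -0.023 there and 0.401 as deposited, and the cause was not tested.

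Leaving out 1 library at a time gave 32 to 47 genes called between AS and PS over both genotypes, 23 to 41 in MUT and 14 to 37 in SIB. By genotype it gave 0 to 8 in AS, 0 to 0 in PS, 0 to 9 over both and 0 to 1 for the interaction. The shares of all transcripts called between regions in these fits are not given here, so the region counts say nothing particular about chaperone genes. Region medians ran from 0.24 to 0.55 (stress-induced), from -1.44 to -1.13 (muscle), from 0.67 to 0.96 (constitutive cytosolic), from 0.04 to 0.14 (mitochondrial) and from 0.31 to 0.42 (endoplasmic reticulum). Genotype medians ran from 0.21 to 0.58, from -0.32 to -0.15, from 0.02 to 0.16, from -0.0495 to 0.0944 and from 0.0061 to 0.14 in the same order. Of single region calls, 1 was lost with a weight per group (dnajb4, adjusted p = 0.0546), 3 without a filter (dnajc5aa, hspb6 and hspbap1) and 1 with a pseudocount of 0.1 (hspb6, adjusted p = 0.0711). With no counts deposited, the precision of low genes cannot be given.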
